A study of Mus musculus with 2 samples.

Results

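Rab proteins are small GTPases that mark membranes and steer vesicles between the compartments of a cell. Each one cycles between a GTP-bound form on a membrane, where it recruits effectors such as motors and tethers, and a GDP-bound form in the cytosol. Exchange factors switch Rabs on and GTPase-activating proteins switch them off, and prenyl groups added by Rab geranylgeranyl transferase anchor them in membranes. In T cells Rab traffic carries receptors to and from the surface and delivers secretory granules.

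The Rab genes were taken by name, as every non-control probe whose array gene name is Rab, a number and at most 2 more letters or digits. This gave 84 probes of 59 gene names, out of 55676 probes with usable spots on both arrays and 34959 gene names. Names are those of the array design, so Rab1 is the gene now called Rab1a and Rab7l1 is Rab29. One of the names, Rab3ip, is not a GTPase but an exchange factor that the name rule also takes. The name rule holds no value, but the family was chosen by the measured difference of Rab6b between these arrays. Every difference below comes from that same contrast and is a description only.

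Total RNA came from regulatory T (Treg) cells sorted from mice aged 5 weeks, with 1 wild-type array and 1 array labelled Nr4a-TKO, a genotype that the labels do not spell out further. The Nr4a genes (Nr4a1 to Nr4a3) encode orphan nuclear receptors that bind DNA. Sorting markers, the mice's sex and number, and which part of each gene was altered are not given in the sources used here. With 1 sample per genotype there are no replicates, so every difference lies between 2 arrays, and no test or p-value was computed. Levels are log2 signals scaled to the 75th percentile of each array, and differences are Nr4a-TKO minus wild-type.

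Of the receptors, Nr4a3 was lower by 7.04-fold, Nr4a1 differed by 0.06 (log2) and Nr4a2 was higher by 2.54-fold, so 2 of the 3 receptor genes were not lower in the array labelled Nr4a-TKO. Whether their probes lie in the altered parts is not known, and each direction below is drawn from that label. The arrays also differed in sex-linked transcripts, with Xist at least 120-fold higher and Ddx3y lower by 3.63-fold. All 8 T cell and Treg markers looked for were well above background on both arrays, and Foxp3, which defines Treg cells, was lower by 17.2-fold. Of the 8, 3 were at least 2-fold lower (3.06% of all names were) and 0 higher (3.15%). Beside Foxp3 these were Ikzf2 (3.07-fold) and Ctla4 (2.29-fold), while Il2ra was lower by 1.31-fold and Lck differed by 0.04. Of 8 granulocyte and mast cell markers, 7 were well above background in wild-type and 3 in Nr4a-TKO. Over all probes, 66.0% were well above background in wild-type and 63.9% in Nr4a-TKO, and 0 spots were saturated.

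The sequences below show what the arrays read for the Rab genes the results turn on. Each is the first 30 bases, 5′ to 3′, of the 60-base probe in the scanner files. Probe positions are on mm9, the build named in the file headers, and no exon annotation of that build was used here. The Rab6a probe lies on the plus strand of chromosome 7 at chr7:107789641-107789700, position 3072 of its transcript in the files. The only Rab6b probe lies on the plus strand at chr9:103087539-103087598, position 4672. Rab34 was read at chr11:78005615-78005674 (plus strand), Rab42 at chr4:131858398-131858457 (minus), Rab26 at chr17:24666408-24666467 (minus) and the brighter Rab8b probe at chr9:66691564-66691623 (minus).
Rab6a: cataccctgtaacttatactcaaacatggg
Rab6b: ctgtgtaatatgtggaaaagactcagcatg
Rab34: gggcctttcatgtataaaaatgcttaatga
Rab42: tactggttggccacaagtgtgacctgaaca
Rab26: tccacgctggaggaagcagttctgcctttg
Rab8b: tatggacctgccatgtggctagtctgttga
Over their full length the Rab6a and Rab6b probes share no run longer than 7 bases, and their best ungapped match was 42.1% identity. No probes of different Rab genes shared a run longer than 11 bases. The probes were compared with each other and not with the transcripts of other genes, so whether a probe also reads a paralogue was not tested.

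Most Rab genes, like most of all gene names, differed by less than 2-fold between the arrays. Of the 59 names, 49 (83.1%) had a probe well above background on both arrays, against 67.2% of all gene names. Of these 49, 3 were at least 2-fold higher in Nr4a-TKO (3.15% of all 23493 measured gene names were), 1 was at least 2-fold lower (3.06% of all) and 45 lay between. The higher genes were Rab34, Rab42 and Rab26, and the lower one was Rab6b. Each of these genes was read by 1 probe alone. By any amount, 28 Rab genes were higher (59.6% of all gene names were) and 21 lower (40.4% of all). The median difference of the Rab genes was 0.04, beside 0.08 for all gene names, and 40 of the 49 lay within 1.5-fold (81.6%, against 84.3% of all). The 4 Rab genes past 2-fold in either direction stand beside 6.22% of all names. At 1.5-fold, 5 Rab genes were higher (8.36% of all) and 4 lower (7.36% of all), together 9 beside 15.7%. With spike-ins as the centre all genes shifted by -0.27, the higher share of names past 2-fold was 26.4% in place of 50.7%, and the Rab counts were 1 higher and 2 lower. Since the family was chosen on this contrast, nothing is read from these shares.

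**Figure D1:**
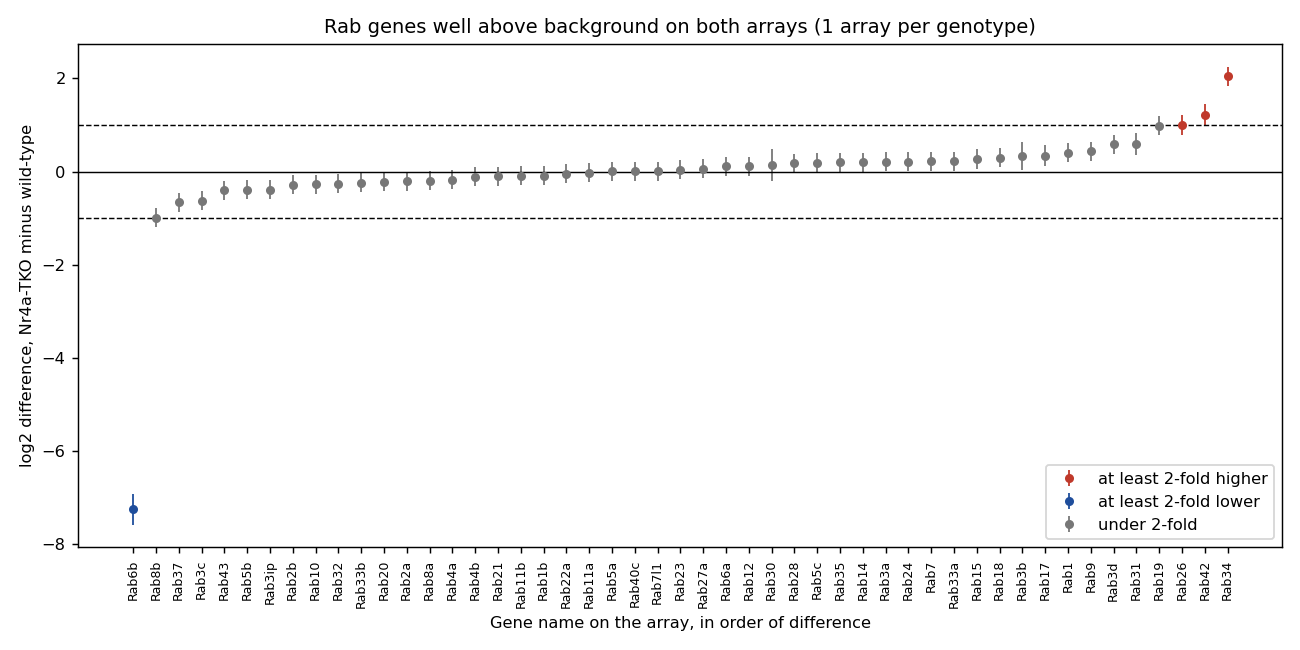
Log2 difference (Nr4a-TKO minus wild-type, y axis) of the 49 Rab genes measured on both arrays, in order of difference along the x axis. Points are single values, bars are the scanner software's own error of the difference and dashed lines mark 2-fold; Rab6b at -7.25 stands far below all others, which lie between -0.99 and 2.04.

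The scanner software gives an error for each spot, from its own noise model. Carried to the difference, this error ranged from 0.20 to 0.33 (log2) over the 49 genes, with a median of 0.20. It holds no variation between mice or preparations. Rab5a, an early endosome Rab, had 10 spots of 1 probe on each array, whose differences ranged from -0.05 to 0.06 with an SD of 0.04. More than 1 probe was measured for 15 Rab genes. In 14 of them all probes lay on the same side of 0, and the gap between probes had a median of 0.16. Rab23 was the exception, at 0.04 and -0.61 with its brighter and dimmer probe. Measured probes of Rab37, Rab3c and Rab9 overlap (over 55, 54 and 37 bases), so the overlapping probes are not independent reads of those genes.

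Among Rabs of the Golgi and the route from the endoplasmic reticulum, 14 of 17 names were measured. The group held 2 of the higher genes and the lower one, beside 3.15% of all names higher and 3.06% lower. It holds Rab6b, on which the family was chosen, so nothing is read from these counts. The group's median was 0.13. Rab6b, a brain-enriched relative of the Golgi Rab6a, had a log2 level of 2.85 in wild-type and -4.39 in Nr4a-TKO. It was lower by 152-fold (log2 difference -7.25, scanner error 0.33), which is the lowest difference of all 23493 gene names. Its processed signal was 6002 in wild-type and 35.8 in Nr4a-TKO, and both spots were called well above background. The lowest log2 value with that call on the Nr4a-TKO array was -4.75, so the Nr4a-TKO level lies near the floor of the scale. With normexp background correction, which adds an offset of 50 to the signals, the fold was 52.4. Granulocyte and mast cell markers had a summed scaled signal of 2.07 in wild-type and 1.13 in Nr4a-TKO. Among them Mpo was lower by 7.76-fold and Kit by 5.40-fold, while Elane differed by -0.07 and Cpa3 was not well above background on either array. Of 9 epithelial, stromal and neuronal markers, 7 were well above background in wild-type and 8 in Nr4a-TKO, with summed signals of 11.23 and 10.005. Snap25, a neuronal fusion protein, carried most of both sums (levels 3.22 and 3.06), while Krt18 was higher by 2.43-fold and Pecam1 lower by 1.63-fold. Of 5 B cell markers, 3 were well above background on each array, with sums of 0.615 and 1.23 carried mostly by Cd79b (higher by 2.51-fold), while Ms4a1 was not above background on either. The part of other cells in the Rab6b value was not tested, and in whole-sample RNA fewer cells of a type and less RNA per cell cannot be told apart.

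Rab6a, which runs retrograde traffic at the Golgi in most cells, had levels of 3.83 in wild-type and 3.94 in Nr4a-TKO. It differed by 0.11, a direction that turned with spike-ins as the centre and with loess, and its second probe by 0.33. Rab6b thus lay 7.36 below Rab6a in difference, with a scanner error of 0.39. The gap was 5.89 with normexp, more than that error away, and the stricter filter on dim probes left Rab6b out. Since the family was chosen on Rab6b, the gap is a description only. No other measured Rab paralogues stood so far apart.

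Rab34, which acts at the Golgi in lysosome positioning and in cilium formation, was the Rab with the largest measured difference in the higher direction. Its level was 0.52 in wild-type and 2.57 in Nr4a-TKO, higher by 4.12-fold (log2 difference 2.04, scanner error 0.20), and it stayed above 3-fold in each alternative run, from 3.41-fold to 4.12-fold. Rab42 was dim, with levels of -3.54 and -2.33, and higher by 2.31-fold. It fell short of 2-fold with normexp (1.68-fold) and with spike-ins as the centre (1.91-fold), and the stricter filter left it out as too dim. Rab19 had levels of 0.77 and 1.76 and, at 0.99, was the higher gene just outside 2-fold.

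The rest of the Golgi group differed less. Rab1 and Rab1b, which carry vesicles from the endoplasmic reticulum to the Golgi, differed by 0.40 and -0.09. Rab2a and Rab2b, which act on the same route, differed by -0.21 and -0.29. Rab43 differed by -0.40, Rab33b by -0.24, the X-linked Rab33a by 0.22, Rab18, a Rab of lipid droplets and the endoplasmic reticulum, by 0.30, and Rab30 by 0.14. The signs of Rab30 and Rab33a turned with spike-ins as the centre.

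**Figure D2:**
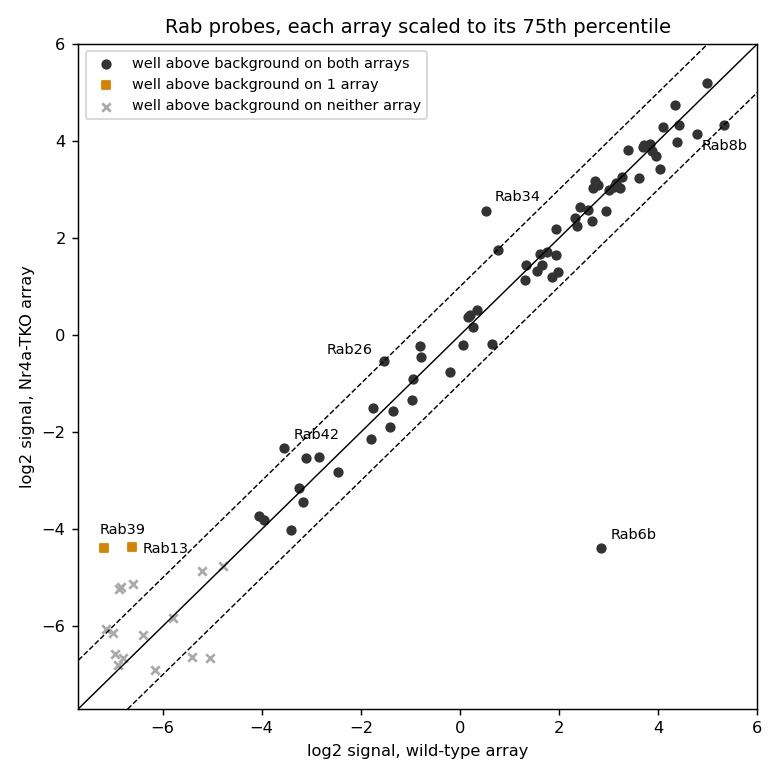
Log2 signal of each of the 84 Rab probes on the wild-type array (x axis) and the Nr4a-TKO array (y axis), each scaled to its array's 75th percentile, with the line of equality and dashed lines at 2-fold. Of the probes, 67 were well above background on both arrays, 2 on 1 array and 15 on neither; Rab6b is the point far below the diagonal.

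All 9 early endosome Rabs were measured. Of them 0 were past 2-fold in either direction, beside 6.22% of all names, so nothing is read from that count. Their differences ranged from -0.39 to 0.59 with a median of 0.00. The Rab5 proteins control fusion of early endosomes. Rab5a differed by 0.00 with a sign that varied, Rab5c by 0.19 and Rab5b by -0.39. All 4 measured probes of Rab5b were lower, from -0.48 to -0.27, while the Rab5a probes lay at 0.00 and 0.24. The sign of Rab5c turned with spike-ins as the centre. Rab31, an endosomal Rab of the Rab22 group, had levels of -3.11 and -2.53 and was higher by 1.501-fold, and its relative Rab22a differed by -0.05. Rab20 and Rab21 differed by -0.21 and -0.10, Rab24, a Rab linked to autophagy, by 0.21, which turned below 0 with spike-ins as the centre, and Rab17, an epithelial Rab, by 0.34.

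Of 15 Rabs of recycling endosomes and exocytic carriers, 12 were measured, with 0 past 2-fold (6.22% of all names were) and a median of -0.05. Rab8b, which serves transport to the plasma membrane, came closest. Its brighter probe had levels of 5.32 in wild-type and 4.33 in Nr4a-TKO, a difference of -0.99, and its other probe differed by -0.83. The gene lay just outside 2-fold lower in the main setting and past it in 6 alternatives, up to 2.40-fold with spike-ins as the centre. Its paralogue Rab8a had levels of 3.24 and 3.04, with probes at -0.20 and -0.06. Rab10, which moves glucose transporter vesicles, differed by -0.28, Rab11a by -0.02, Rab11b by -0.09, Rab35, a Rab of fast recycling, by 0.19 and Rab14 by 0.20. Rab15 differed by 0.27 and Rab40c by 0.00. Rab4a, a fast recycling Rab, differed by -0.18 and Rab4b by -0.11. The signs of Rab11a, Rab14, Rab15, Rab35 and Rab40c turned in at least 1 alternative.

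Of 6 late endosome and lysosome Rabs, 4 were measured, with a range of -0.26 to 0.44. Past 2-fold were 0 of the 4, beside 6.22% of all names. Rab7, the main Rab of late endosomes and lysosomes, differed by 0.22, a sign that turned with spike-ins as the centre. Rab9, X-linked and active in return from late endosomes to the Golgi, had 3 measured probes between 0.35 and 0.45. A pair of these probes overlaps over 37 bases. Rab32 differed by -0.26 and Rab7l1 by 0.00, with a sign that varied. Rab38, which with Rab32 supplies melanosomes, was not well above background on either array. Of the ciliary Rabs, Rab23 differed by 0.04 and Rab28 by 0.18, and both turned below 0 with spike-ins as the centre.

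Rabs of regulated secretion were the most spread of the groups apart from Rab6b's, from -0.66 to 1.001 over 7 measured names of 9. Their median was 0.21. Past 2-fold was 1 of the 7, beside 6.22% of all names, and nothing is read from that count. Rab26, a Rab of secretory granules, had levels of -1.53 in wild-type and -0.53 in Nr4a-TKO. It was higher by 2.002-fold (log2 difference 1.001, scanner error 0.21), which is just inside the threshold. It came under 2-fold in 5 alternatives, down to 1.66-fold with spike-ins as the centre, and stood at the threshold itself in the deposited log2 table. Its closest relative Rab37 had levels of 1.97 and 1.31 and differed by -0.66, with a second probe at -0.67. The Rab37 probes overlap over 55 of 60 bases and are not independent reads of the gene. Rab26 and Rab37 were therefore 1.66 apart with a scanner error of 0.29.

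The Rab3 proteins act late in exocytosis, and all 4 were measured. Rab3a had levels of 0.20 and 0.41, Rab3b of -4.05 and -3.73, Rab3d of -0.81 and -0.23, and Rab3c of 4.78 and 4.15. Their differences were 0.21, 0.33, 0.58 and -0.63, and a second, dimmer Rab3d probe differed by 0.11. Rab3c was the only lower one in the main setting, and the sign of Rab3a turned with spike-ins as the centre. The Rab3c probes disagreed. A pair that overlaps over 54 bases was bright on both arrays, while the gene's remaining probe, position 8381 of the transcript against 2311, was not above background on either. Whether the bright pair reads Rab3c or another transcript was not tested, and the Rab3c values hold for that pair alone. Rab27a, which docks cytotoxic and other secretory granules, had levels of 1.62 and 1.68 and differed by 0.06, a sign that turned with spike-ins as the centre. Its paralogue Rab27b was not well above background on either array.

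**Figure D3:**
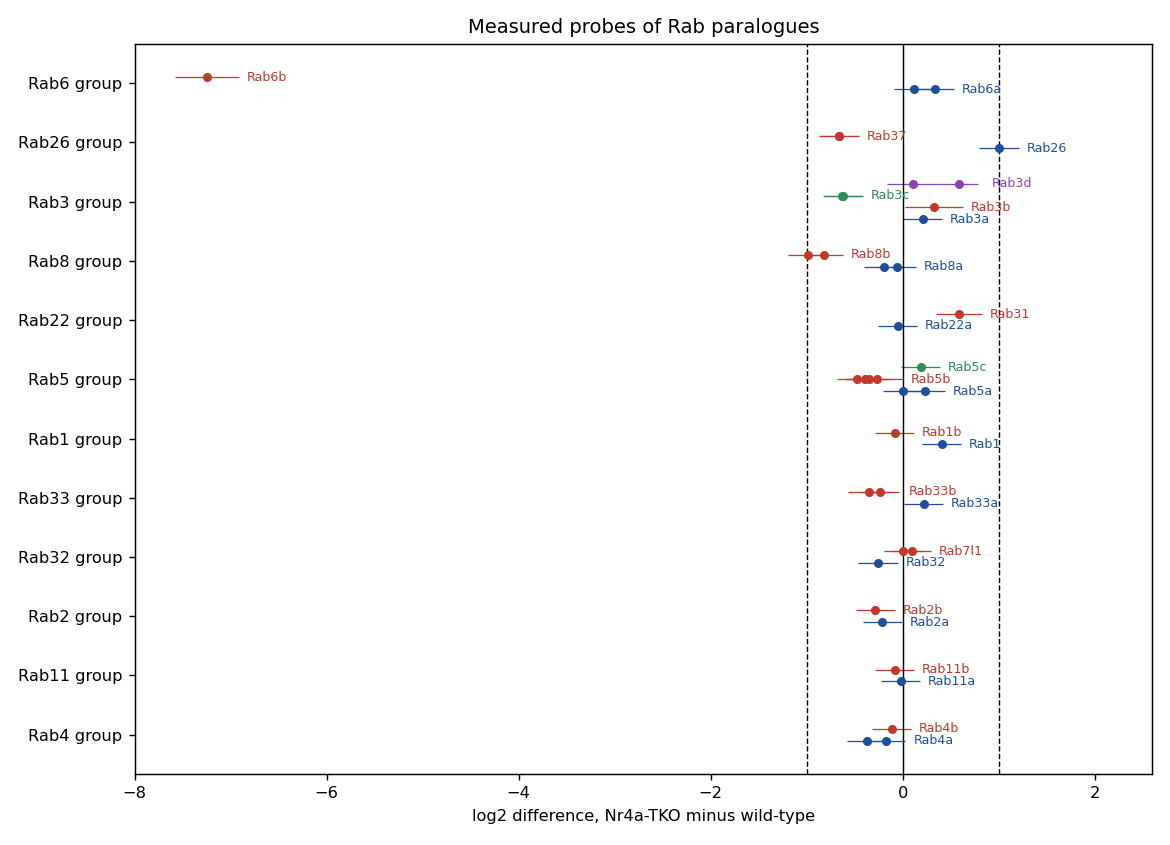
Log2 difference (x axis) of every measured probe of the Rab paralogues, by group (y axis, in order of the gap between members), with the scanner software's error as bars and dashed lines at 2-fold. Rab6, Rab26 and Rab3 are the groups whose members lie at least 1 log2 unit apart by the brightest probe of each gene.

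Of 16 paralogue groups, 12 had at least 2 measured members, and the gap between the highest and lowest had a median of 0.53. In 3 groups it reached 1 log2 unit, namely Rab6 (7.36), Rab26 with Rab37 (1.66) and Rab3 (1.21). The Rab3 gap rests on the bright Rab3c pair and the brighter Rab3d probe, and it was 0.97 when the probes of a gene were averaged. The gap was 0.79 for Rab8, 0.64 for Rab22a and Rab31 (0.37 with normexp), 0.58 for Rab5 and 0.49 for Rab1. The members of the Rab4, Rab11 and Rab2 groups lay within 0.08 of each other.

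A further 2 of the 59 Rab names were well above background in Nr4a-TKO alone, and 0 in wild-type alone. Of all gene names, 71.8% were well above background in wild-type, 70.01% in Nr4a-TKO and 67.2% on both arrays. Nothing is read from the Rab counts. Rab13, a Rab of epithelial junctions, was at least 1.63-fold higher and Rab39 at least 1.61-fold higher, with Nr4a-TKO signals of 36.4 and 36.0. Such a bound sets the brighter array against the dimmest probe called above background on the other. The remaining 8 names, Rab9b, Rab25, Rab27b, Rab36, Rab38, Rab39b, Rab40b and Rab44, lacked such a call on both arrays, so no fold is given for them. The Rab38 probes, both below background, differed in opposite directions.

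Genes that load and regulate Rabs were described from lists of the pathway. The list for membrane delivery had all 7 genes measured and 0 past 2-fold (6.22% of all names were), with a median of 0.16 beside 0.08 for all names. Chm, an escort protein that brings new Rabs to the prenyltransferase, was higher by 1.85-fold (levels 0.18 and 1.07), and its other probe differed by 0.60. Rabggtb, the catalytic subunit of that enzyme, was higher by 1.48-fold. In the other direction Rabac1 differed by -0.41, with a second probe at -0.42. By any amount, 5 of the 7 genes were higher and 2 lower. Among exchange factors, 31 of 33 were measured. Past 2-fold were 1 higher and 0 lower (3.15% and 3.06% of all names were), and the median was -0.01. Dennd3, an exchange factor for Rab12, had levels of -2.96 and -1.52 and was higher by 2.71-fold, while Rab12 itself differed by 0.11, a sign that turned with spike-ins as the centre. Rab3ip, which activates Rab8a and Rab8b, differed by -0.39.

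Of the GTPase-activating proteins, 32 of 35 were measured, with a median of -0.08. Past 2-fold was 1 gene in each direction, beside 3.15% of all names higher and 3.06% lower, a like share. Tbc1d4, which acts on Rab8a, Rab10 and Rab14, had levels of 3.01 in wild-type and 0.81 in Nr4a-TKO and was lower by 4.58-fold. Its other measured probe differed by -0.60. Tbc1d2, which acts on Rab7, was higher by 3.03-fold at its brightest probe, while its 4 probes ranged from -0.56 to 1.60, so its direction depends on the probe.

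Of 43 effectors, 34 were measured on both arrays. Of these 34, 0 were past 2-fold (6.22% of all names were), and the median was 0.11. That count leaves out effectors at background on an array, with 37 well above background in wild-type and 34 in Nr4a-TKO. Sytl2 and Rph3a, on the same list, were at background in Nr4a-TKO and at least 14.9-fold and 5.08-fold lower there. For Rab6, 9 of 11 partners were measured and 0 were past 2-fold. Kif20a, a kinesin of mitosis that binds Rab6, was higher by 1.89-fold and Dennd5a by 1.66-fold. Bicd2, an adaptor that joins Rab6 vesicles to dynein, differed by -0.13, Rgp1, part of the Rab6a exchange factor, by -0.14 (its second probe by 0.03) and Rabgap1 by -0.24. The measured Rab6 partners ranged from -0.24 to 0.92, and Bicd1 and Bicdl2 were at background on both arrays.

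Of 11 Rab27 partners, 8 were well above background in wild-type and 5 in Nr4a-TKO, beside 71.8% and 70.01% of all gene names. The partners at background in Nr4a-TKO alone were Sytl2, Rph3a and Sytl4. Sytl2, an effector that tethers Rab27a granules to the plasma membrane, had a level of -0.85 in wild-type and was at least 14.9-fold lower in Nr4a-TKO. Rph3a, which binds Rab3 and Rab27 on secretory vesicles, had a level of -2.40 and was at least 5.08-fold lower, and Sytl4 at least 1.19-fold lower. In contrast Sytl1 and Sytl3, of the same family, were higher by 1.66-fold and 1.68-fold, the 4 Sytl3 probes ranging from 0.40 to 1.41, and Unc13d, which primes granules for release, differed by 0.09. The granulocyte and mast cell markers given with Rab6b were also lower in sum. Of 5 CD8 and NK cell markers, 4 were well above background on each array, with sums of 1.49 and 1.40. Among them Eomes was higher by 2.47-fold and Cd8b1 lower by 1.56-fold. Of 7 platelet and erythroid markers, 3 were well above background in wild-type and 1 in Nr4a-TKO. For macrophage and dendritic cells, 4 and 3 of 6 markers were, with sums of 1.28 and 1.41. The part of other cells in these values was not tested.

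**Figure D4:**
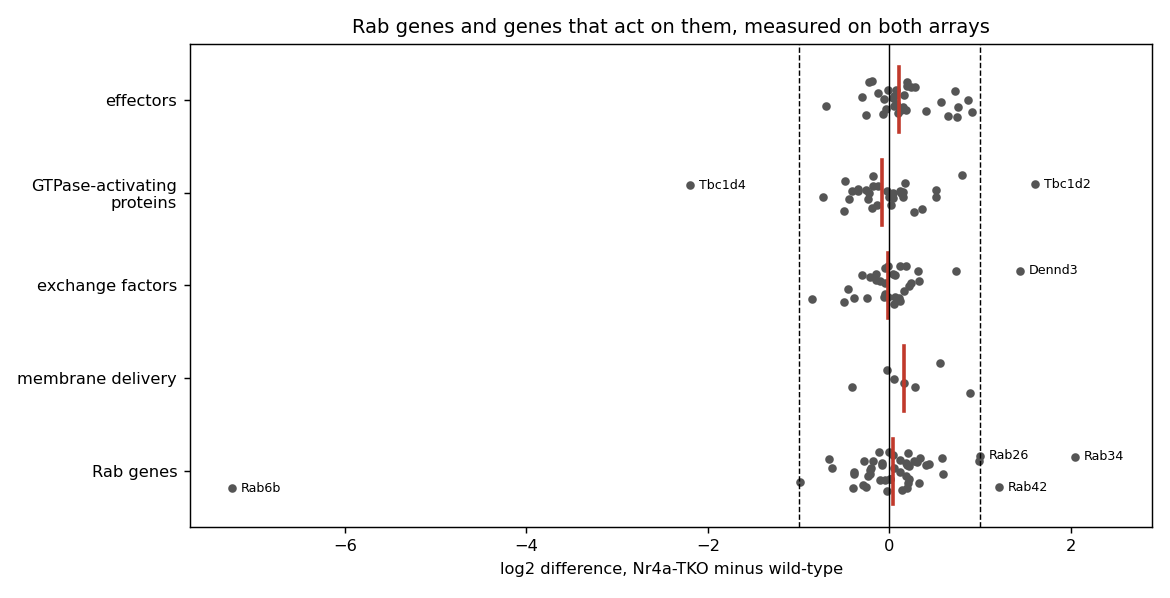
Log2 difference (x axis) of the 49 Rab genes and of the listed genes that act on them (y axis, by list) among those measured on both arrays, with red bars at each list's median and dashed lines at 2-fold. The medians lie between -0.08 and 0.16, and genes past 2-fold are named. The effectors Sytl2 and Rph3a, at background in Nr4a-TKO, are not drawn.

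The upstream sequences of the Rab6 genes are shown because these paralogues differed most. Each line gives the 250 bases before the gene start, 5′ to 3′, from RefSeq on GRCm38.p6, with CG pairs in capitals. Rab6a lies at chr7:100607336-100607585 and Rab6b at chr9:103111824-103112073, both on the plus strand.
Rab6a: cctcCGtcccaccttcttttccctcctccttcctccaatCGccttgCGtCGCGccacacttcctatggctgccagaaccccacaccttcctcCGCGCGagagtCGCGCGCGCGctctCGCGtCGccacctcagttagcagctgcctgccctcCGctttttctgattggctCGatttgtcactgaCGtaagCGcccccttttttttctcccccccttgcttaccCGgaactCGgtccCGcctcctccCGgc
Rab6b: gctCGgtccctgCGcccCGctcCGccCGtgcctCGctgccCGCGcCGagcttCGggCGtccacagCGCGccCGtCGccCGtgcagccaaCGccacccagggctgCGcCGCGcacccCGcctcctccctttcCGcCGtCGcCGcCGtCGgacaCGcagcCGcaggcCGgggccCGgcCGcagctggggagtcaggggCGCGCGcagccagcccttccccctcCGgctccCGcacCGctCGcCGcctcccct
Rab6b held 40 CG pairs and 80.8% G and C in these bases, and Rab6a 24 pairs and 62.8%. Over windows that run from 250 bases before to 50 bases after the start, 49 of the 59 Rab genes matched an entry, giving 61 windows. Their median was 20 CG pairs, beside 7 over all 32851 windows in the table. The letters AAAGGTCA, the element that Nr4a receptors bind as monomers, were searched on both strands. They were in 0 of the 61 Rab windows and in 1.51% of all windows, which says only that these letters are not in these windows.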

How the data were processed

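Spot intensity was read by Agilent Feature Extraction 10.10.1.1 and deposited with spatial and multiplicative detrending and mm9 annotation, per the file headers. The 2 arrays shared a slide and a scan time. The authors' second table holds log2 values. Set against the scanner files, these were the log2 processed signal minus a constant for each array (SD of what remained 0.00029). The column medians were -3.54 and -3.53, and how the constant was chosen stays unknown.

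Control spots (3671 of 62976) and outlier spots (156 and 117) were left out. Spots of 1 probe were averaged as log2 processed signal, and the 75th percentile of all 55676 probes on that array was subtracted. Each gene was read by its probe of highest mean signal. It counted as measured where the scanner software called that probe well above background in wild-type and in Nr4a-TKO alike. Names came from RefSeq through accessions for 27508 probes (80 of the 84 Rab probes), otherwise from the file, and Rab names always from the file. The Rab genes, roles and pathway lists were chosen with earlier results of these data known. All Rab genes could be named, with levels for those past 2-fold, their paralogues and the 2 nearest the threshold on each side. In the pathway lists, genes past 2-fold (up to 6 a list) and all Rab6 and Rab27 partners could be named, and others were picked after their values were seen. Alternatives covered background correction, centring, normalization, filters, thresholds and probes per gene. The counting step was tested on simulated data. The tools were limma 3.58.1 in R 4.3.3, and numpy 2.4.6, pandas 2.3.3, statsmodels 0.14.6 and matplotlib 3.10.9 in Python 3.11.15.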

Additional observations from a re-analysis of the deposited data

How the results depend on the processing

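No paired analysis was possible because each genotype has 1 array. The number of arrays limits the precision. The 3 higher and 1 lower Rab genes became 1 and 2 with normexp (offset 50) and with spike-ins as the centre, which shifted all genes by -0.27 and gave a Rab median of -0.24. The lower count was 2 with the array median, with the 75th percentile taken over detected probes alone, with quantile normalization and with loess (span 0.3). The second gene was Rab8b each time. The higher count stayed at 3 with quantile normalization and was 2 with the others of these, where Rab26 came under 2-fold. Without the filter on dim probes the counts were 7 and 2 of 59, beside 1988 and 1834 of all 34959 names. With the stricter filter they were 2 and 0 of 45, because Rab42 and Rab6b were left out. Of all 17573 names kept by that filter, 478 were higher and 496 lower. At 1.5-fold the Rab counts were 5 and 4 (8.36% and 7.36% of all names). At 3-fold the higher count was 1, beside 288 of all 23493 names. Nothing is read from these counts. The median without Rab6b, chosen after seeing the data, was 0.05. Using the log2 table as deposited, averaging the probes of a gene and leaving out Rab3ip each left the counts at 3 higher and 1 lower. Of 486 alternative values of single Rab genes, 436 moved by less than their scanner error. This count does not measure robustness. The filters on dim probes cannot change the value of a gene they keep, and averaging cannot change a gene with 1 measured probe. The centring alternatives shift all genes by 1 constant. The sign turned in at least 1 alternative for 18 genes, of which Rab15 at 0.27 lay farthest from 0.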
